A study of Arabidopsis thaliana with 9 samples.

Results

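The loss of *VTC2* in Arabidopsis shoots was examined in the comparison of *vtc2-4* with the wild type. Libraries were grouped by genotype, and the comparison was chosen with earlier results of these data known. It rests on 6 of the 9 RNA-seq libraries of the series, namely 3 of *vtc2-4* and 3 of the wild type. Reads were counted on each of 28642 genes. The mutant plants were *vtc2-4*, a single T-DNA insertion allele of *VTC2* (SAIL_769_H05) in the Col-0 background, and the wild type was Col-0. All seedlings were 2 weeks old, had grown on MS medium with 1% sucrose, and had then spent 2 d in darkness and 6 h in light of 100 µmol photons before the shoots were taken. The other 3 libraries came from *vtc3-3*, an insertion allele of another gene of ascorbate accumulation, handled in the same way. They entered the fit, where they add to the estimate of the spread, and they set the level of a gene in *vtc2-4* against a second ascorbate-poor genotype. The mutant is represented by 1 allele. For plate-grown plants, as these seedlings were, the methods describe a biological replicate as the pooled shoots of several plants, so p-values measure the spread between such pools. Because shoots were extracted whole, fewer cells of a type and less RNA per cell cannot be told apart.

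Ascorbate is the most abundant water-soluble antioxidant of leaves and is made from GDP-mannose through L-galactose. *VTC2* encodes GDP-L-galactose phosphorylase, the first committed enzyme of that route and its main point of control, and *VTC5* encodes a second, much less expressed copy. Ascorbate peroxidases use ascorbate to remove hydrogen peroxide, and the oxidized forms are reduced again in the ascorbate–glutathione cycle. Shoots that return from long darkness to light also shift from starvation to sugar-fed expression, and chloroplasts raise transcripts for photoprotection.

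Between 4399733 and 7567492 reads were counted on genes in a library. Levels are given as CPM, the reads of a gene per 1e+06 reads of the library after edgeR's TMM scaling, and every fold change is log2 of *vtc2-4* over the wild type with its standard error (SE) from edgeR's quasi-likelihood fit. Adjusted p stands for that test's p-value after Benjamini–Hochberg adjustment over all genes tested, and a gene was called when it was under 0.05. Wild-type replicate 1 stood apart from the rest. Its mean correlation with the other libraries was 0.912, whereas the other 8 libraries lay between 0.975 and 0.978, and its deviations followed transcript length (r = -0.57 across genes, against -0.04 to 0.17 in the others). The leaf transcript *RCA*, which encodes Rubisco activase, had 5350, 5606 and 4970 CPM in *vtc2-4*, against 1787, 5417 and 4988 CPM in the wild type. Results are therefore given with all libraries and without wild-type replicate 1, for single genes as the log2 fold change "without replicate 1". A gene given as called only without that library was called in that fit and not with all libraries. For counts of genes in a list at an unadjusted p under 0.05, the figure over all genes tested was 1722 of 17388 with all libraries, and 8480 of the 17388 lay above the wild type. Of 11 root markers, 10 had at most 3 reads in each of these 6 libraries.

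With all libraries, 74 of 17388 tested genes were higher in *vtc2-4* (0.426%) and 30 were lower (0.173%). Without wild-type replicate 1 the counts were 535 of 17631 (3.03%) and 531 (3.01%), so the split between higher and lower genes was even there, whereas with all libraries DESeq2 gave 149 and 135 and removal of the length trend of each library 129 and 82. The 104 genes called with all libraries were all called in the same direction without wild-type replicate 1. Fewer of them kept the call when another library was left out, with 59 and 62 of 104 called without wild-type replicates 2 and 3 and 32, 32 and 58 called without *vtc2-4* replicates 1, 2 and 3. The fit of the 6 *vtc2-4* and wild-type libraries alone, without *vtc3-3*, called 29 genes higher and 5 lower, and 34 of the 104 genes were called in it. Of the 58 called genes that are named here, 23 were called in each of the 6 fits that left out 1 of these libraries. Within *vtc2-4*, replicate 3 had the lowest CPM in 68 of the 74 higher genes. It had the lowest CPM in 10 of the 30 lower genes. In most higher genes replicate 3 thus stood nearest to the wild type.

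*VTC2* (AT4G26850, chromosome 4, 13499010 to 13501648 in the deposited table) had 47, 51 and 37 reads in *vtc2-4*, against 2842, 3897 and 4500 reads in the wild type. In CPM these were 6.98, 7.15 and 5.33 in *vtc2-4*, against 511, 774 and 776 in the wild type. The transcript fell in *vtc2-4* by 6.72 ± 0.23 on the log2 scale (adjusted p = 1.25e-06), and by 6.90 ± 0.08 without wild-type replicate 1. A small number of reads thus remained on the disrupted gene, whose insertion the study places in the third exon. *VTC5* had 64.6, 49.2 and 62.5 CPM in *vtc2-4*, against 83.4, 62.8 and 58.1 CPM in the wild type, with overlapping groups and a log2 fold change of -0.21 ± 0.16 (adjusted p = 0.592). Among the 8 other enzymes of ascorbate synthesis, from phosphomannose isomerase to the final dehydrogenase, none was called, and their log2 fold changes lay between -0.39 and 0.28. *GME*, the GDP-mannose epimerase just upstream of *VTC2*, had 367, 368 and 359.6 CPM in *vtc2-4*, against 431, 372 and 349 CPM in the wild type.

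The 10 annotated genes on each side of *VTC2* were inspected because an insertion can alter transcripts nearby. None of the 12 that were tested was called with all libraries. Without wild-type replicate 1, AT4G26860, which lies next to *VTC2*, was lower with 51.2, 48 and 49 CPM in *vtc2-4*, against 101, 69 and 62.1 CPM in the wild type (log2 fold change -0.40 ± 0.09, adjusted p = 0.0114). AT4G26950 had 4, 5 and 5 reads in *vtc2-4*, against 22, 14 and 13 reads in the wild type, and was likewise called lower only in that fit (-1.86 on the log2 scale, adjusted p = 0.0242).

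Of the ascorbate–glutathione cycle, no member was called with all libraries. Of its 17 listed enzymes, 14 were tested, with a median log2 fold change of -0.07 against -0.01 over all genes, and 3 had an unadjusted p under 0.05. *APX1*, the main cytosolic ascorbate peroxidase, had 1202, 1355 and 1449 CPM in *vtc2-4*, against 1262, 1198 and 1221 CPM in the wild type (log2 fold change 0.12). Without wild-type replicate 1, *GR1* and *MDAR2*, which encode a glutathione reductase and a monodehydroascorbate reductase, were lower. *GR1* had 203, 220.2 and 222 CPM in *vtc2-4*, against 242, 321 and 303 CPM in the wild type (log2 fold change without replicate 1 -0.53 ± 0.06, adjusted p = 5.61e-06). *MDAR2* had 146, 155 and 172 CPM in *vtc2-4*, against 259, 197 and 187 CPM in the wild type (-0.28 ± 0.08, adjusted p = 0.038 in that fit). Its groups did not overlap, but the *vtc2-4* and *vtc3-3* levels did.

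Of 23 other antioxidant enzymes, 1 was called higher with all libraries. *CCS*, which delivers copper to the copper/zinc superoxide dismutases, was that gene, with 59.1, 52.2 and 51.6 CPM in *vtc2-4*, against 26.6, 29.4 and 34.3 CPM in the wild type (0.85 ± 0.13, adjusted p = 0.0265, and 0.76 without replicate 1). It was called in 2 of the 6 fits without a library, those without wild-type replicate 1 or 3, and not in the fit of the 6 libraries alone. Its client *CSD2*, the chloroplast enzyme, had 261, 216 and 236 CPM in *vtc2-4*, against 135, 153 and 171 CPM in the wild type (adjusted p = 0.0749). The cytosolic *CSD1* had 127, 117 and 123 CPM in *vtc2-4*, against 140.0, 64.6 and 72.3 CPM in the wild type. In the fit without wild-type replicate 1, both were called, at 0.55 ± 0.07 for *CSD2* and 0.83 ± 0.08 for *CSD1*. In the same fit 4 of the 23 enzymes were lower, among them *FER1*, an iron-storing ferritin, with 1192, 1436 and 1451 CPM in *vtc2-4*, against 2209, 1955 and 2031 CPM in the wild type.

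Transcription factors of the AP2/ERF family that respond rapidly to wounding, touch or other stimuli had the highest median of all lists. Of 24 listed, 14 were expressed enough to be tested, 9 were called higher and none lower, and the median log2 fold change was 1.97. When wild-type replicate 1 was left out, 12 were called higher with a median of 2.18, and over the fits that left out 1 library the number called ran from 6 (without *vtc2-4* replicate 1 or 2) to 12. The members were listed with earlier results of these data known, and the 10 untested ones were too low to judge. The filter kept genes that were high enough in a single genotype, so genes near the floor in the wild type could enter through *vtc2-4*. This favours rises among the tested members. With no filter on low counts, 23 were tested, 10 were called higher and none lower, and the median was 1.83.

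*ORA47*, an AP2/ERF factor tied to jasmonate synthesis, had 22.6, 16.4 and 16.3 CPM in *vtc2-4*, against 2.16, 0.795 and 1.21 CPM in the wild type (log2 fold change 3.70 ± 0.31, adjusted p = 0.00112, and 4.15 without replicate 1). *ERF104*, an ethylene response factor and known substrate of the kinase MPK6, had 35.5, 42.4 and 30.3 CPM in *vtc2-4*, against 3.95, 3.98 and 2.76 CPM in the wild type (3.34 ± 0.21, adjusted p = 0.0002, and 3.43 without replicate 1). All *vtc2-4* values of these genes lay far above all wild-type values. *RAV1*, which joins an AP2 and a B3 domain, had 79.5, 78.4 and 52.9 CPM in *vtc2-4*, against 15.1, 13.9 and 14.7 CPM in the wild type (2.27 ± 0.19, adjusted p = 0.00118, and 2.3 without replicate 1). *ERF1A*, an activator that binds the GCC box, had 24.3, 19.4 and 17.9 CPM in *vtc2-4*, against 5.57, 6.16 and 5.18 CPM in the wild type (1.86 ± 0.17, adjusted p = 0.00152, and 1.86 without replicate 1). These genes were called whichever library was left out, as were *DREB26* (2.99 ± 0.35) and AT5G61590 (2.28 ± 0.26). *ERF105* (2.61 ± 0.37, adjusted p = 0.0147, and 2.82 without replicate 1) and *ERF6* (2.08 ± 0.34, adjusted p = 0.028, and 2.03 without replicate 1) were called in 3 of those 6 fits. *TEM2*, a relative of *RAV1* and the last of the 9, had a log2 fold change of 1.82.

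Several of these factors lie side by side in the genome. AT5G61590 (24764256 to 24765511) and *ERF104* (24766344 to 24767732) stand 832 bases apart on the minus strand of chromosome 5 in the TAIR10.1 RefSeq annotation. AT5G61590 had 80.9, 76 and 61.2 CPM in *vtc2-4*, against 21.6, 11.7 and 11.4 CPM in the wild type. *ERF6* and *ERF1A* face away from each other on chromosome 4 with 5041 bases and no protein-coding gene between them. *ERF2* and *ERF5* form a like pair on chromosome 5, with 1 protein-coding gene in the 6924 bases between. Neither was called with all libraries (adjusted p = 0.348 and 0.0514), whereas both were higher without wild-type replicate 1, at 1.33 ± 0.26 for *ERF2* and 1.52 ± 0.24 for *ERF5*. For *ERF5* the CPM values were 11.3, 12.6 and 8.65 in *vtc2-4*, against 5.57, 3.38 and 4.14 in the wild type.

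**Figure D1:**
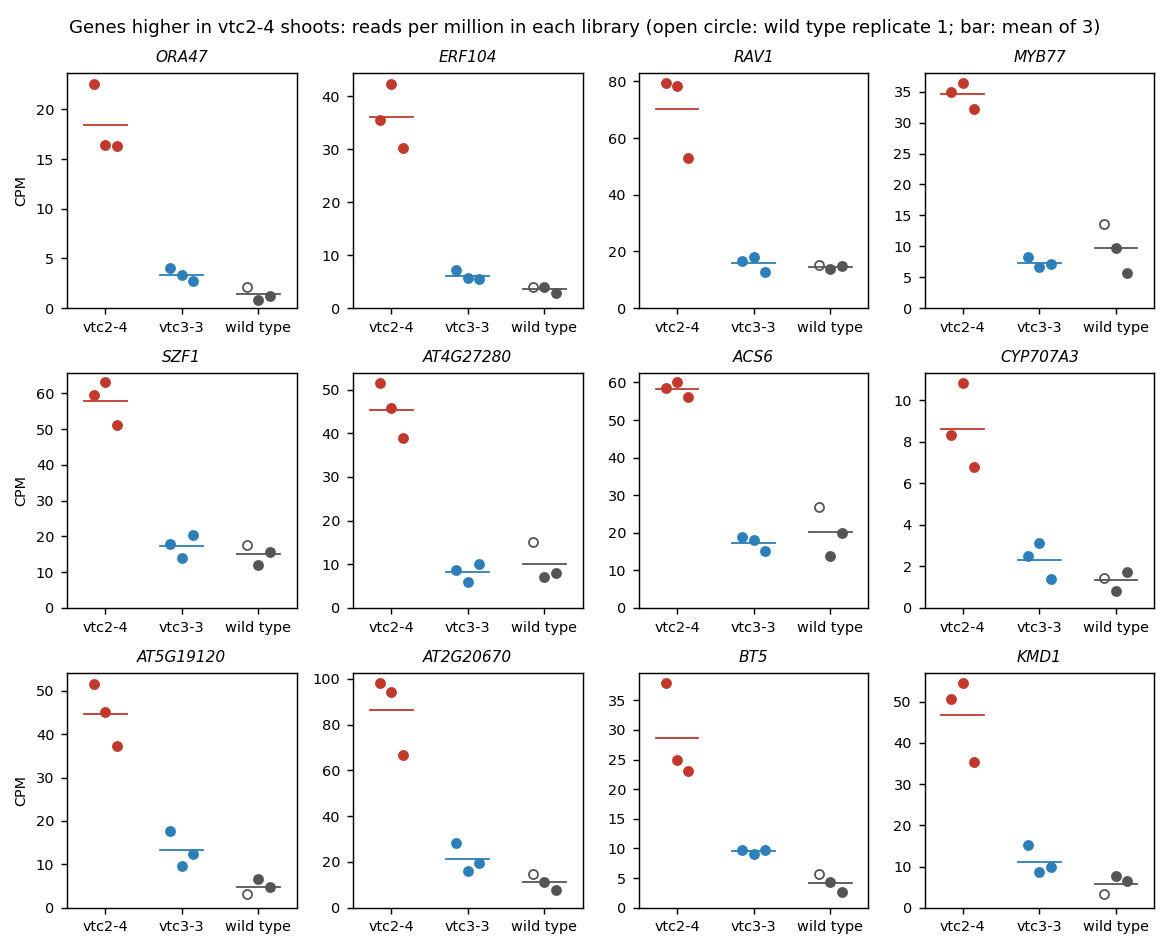
Levels (CPM, linear axes that start at 0) of 12 genes called higher in *vtc2-4*, with 1 point for each library of *vtc2-4*, *vtc3-3* and the wild type, a bar at the mean of 3 and an open circle for wild-type replicate 1. In each panel the 3 *vtc2-4* points lie above all wild-type points, for *ORA47* at 16.3 to 22.6 CPM against 0.795 to 2.16 CPM.

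Other rapidly induced regulators were called as well. Of 29 zinc finger, WRKY and MYB factors and RNA-decay genes, 26 were tested and 8 were called higher, with none lower and a median log2 fold change of 0.26. With wild-type replicate 1 removed, 12 of 27 were higher with a median of 0.75, and 4 were called without *vtc2-4* replicate 1 and also without *vtc2-4* replicate 2. *SZF1*, a CCCH zinc finger protein of the stress response, had 59.5, 63.1 and 51.2 CPM in *vtc2-4*, against 17.6, 12.1 and 15.5 CPM in the wild type (1.94 ± 0.18, adjusted p = 0.00158, and 2.06 without replicate 1). *CAF1A*, a deadenylase that shortens the poly(A) tails of mRNAs, had 23.6, 27.8 and 17.9 CPM in *vtc2-4*, against 6.47, 3.78 and 6.73 CPM in the wild type (2.02 ± 0.25, adjusted p = 0.00625, and 2.11 without replicate 1). *ZAT10*, a C2H2 zinc finger repressor of abiotic stress, had 15, 18.2 and 10.4 CPM in *vtc2-4*, against 2.34, 3.18 and 5.52 CPM in the wild type. It was called with all libraries (1.97 ± 0.32, adjusted p = 0.0285, and 1.71 without replicate 1) and in 3 of the 6 fits without a library. The further called members were *ATCTH*, *SZF2* and *OZF2*, also CCCH zinc finger genes, at 2.15, 1.07 and 0.93 on the log2 scale. They were called in 6, 3 and 1 of those 6 fits, in that order.

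Among MYB factors, 2 relatives of *MYB44* were called. *MYB73* had 48.2, 40.8 and 35.3 CPM in *vtc2-4*, against 9.53, 9.54 and 13.5 CPM in the wild type (1.93 ± 0.18, adjusted p = 0.00158, and 1.83 without replicate 1). *MYB77*, which also acts with auxin response factors, had 35, 36.5 and 32.3 CPM in *vtc2-4*, against 13.7, 9.74 and 5.69 CPM in the wild type (1.84 ± 0.25, adjusted p = 0.0113, and 2.19 without replicate 1). *MYB44* itself had 59.2, 60.3 and 54.6 CPM in *vtc2-4*, against 62, 45.3 and 41.9 CPM in the wild type, and was called only without replicate 1 of the wild type (0.42 ± 0.10). For 1 WRKY gene wild-type replicate 1 set the direction. *WRKY40*, a repressor of defence and abscisic acid genes, had 5.2, 8.13 and 6.77 CPM in *vtc2-4*, against 17.4, 2.38 and 1.38 CPM in the wild type. Its log2 fold change was -0.08 ± 0.73 with all libraries and 1.85 ± 0.39 without wild-type replicate 1 (adjusted p = 0.00493).

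The promoters of these regulators were searched for the W-box, the site bound by WRKY factors (TTGACC or TTGACT, on either strand), in the 250 bases before each gene start of the TAIR10.1 RefSeq annotation. It was found in 32 of the 74 promoters of higher genes (43.2%), in 4 of 29 of the lower genes (13.8%) and in 28.4% of all 27443 protein-coding promoters of this length. Of the 24 AP2/ERF promoters, 11 held one (45.8%), but of the 9 called members 3 did (33.3%), and of the 29 zinc finger, WRKY and MYB promoters 10 did (34.5%). The detoxification list, whose calls were all falls, held one in 22 of 41 promoters (53.7%). These are matches of letters and not shown sites. The promoter of *SZF1* (chr3:20775970-20776219, plus strand) is shown 5′ to 3′ as an example with several W-boxes, in capitals, which begin 163, 57 and 50 bases before the gene start.
SZF1: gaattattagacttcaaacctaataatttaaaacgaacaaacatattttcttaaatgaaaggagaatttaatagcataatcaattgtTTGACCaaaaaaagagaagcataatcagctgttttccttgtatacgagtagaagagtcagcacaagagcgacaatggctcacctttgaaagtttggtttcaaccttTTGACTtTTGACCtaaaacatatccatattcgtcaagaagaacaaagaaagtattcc

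Some touch-induced, calcium-binding and cell wall genes were also higher. Of 21 listed, 14 were tested and 4 were called higher, none lower, with a median log2 fold change of 1.2. After removal of wild-type replicate 1, 10 were called, and none was called without *vtc2-4* replicate 1 or without *vtc2-4* replicate 2. AT4G27280, annotated as a calcium-binding EF-hand protein, had 51.5, 45.7 and 38.9 CPM in *vtc2-4*, against 15.1, 7.16 and 7.94 CPM in the wild type (2.17 ± 0.28, adjusted p = 0.00835, and 2.58 without replicate 1). *TCH4*, a xyloglucan endotransglucosylase that loosens walls and is a classical touch gene, had 174, 160.3 and 130.3 CPM in *vtc2-4*, against 77.8, 40.7 and 39.5 CPM in the wild type (1.55 ± 0.26, adjusted p = 0.0328, and 1.95 without replicate 1). Its lowest *vtc2-4* value lay above the highest wild-type value, but it was called in only 1 of the 6 fits without a library. *EXO*, which promotes growth in the brassinosteroid response, had 85, 71.8 and 66 CPM in *vtc2-4*, against 20.7, 31.2 and 33.6 CPM in the wild type (1.38 ± 0.18, adjusted p = 0.00985, and 1.19 without replicate 1). Its homologue *PHI-1* had 109, 142 and 79 reads in *vtc2-4*, against 11, 6 and 16 reads in the wild type (2.97 ± 0.41, adjusted p = 0.0113, and 2.95 without replicate 1). *CML38*, a calmodulin-like protein, was called only without wild-type replicate 1 (2.23 ± 0.38).

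Hormone pathways gave few calls. Of 23 tested jasmonate genes none was called with all libraries, with a median log2 fold change of 0.08 and 3 at an unadjusted p under 0.05. The enzymes *LOX3*, *AOS* and *OPR3*, which act in turn in jasmonate synthesis, had log2 fold changes of 0.22, 0.18 and -0.01. *JAZ7*, a repressor of jasmonate signalling, had 32, 8 and 14 reads in *vtc2-4*, against 2, 0 and 0 reads in the wild type. It was too low to be tested with all libraries and was called higher without wild-type replicate 1. In the same fit *JAR1*, which conjugates jasmonate to isoleucine, was lower, with 53.9, 57.4 and 54 CPM in *vtc2-4*, against 49.6, 71.4 and 69 CPM in the wild type (-0.35 ± 0.07 in that fit, adjusted p = 0.00515). Of 16 ethylene genes, *ACS6* and *ETP1* were called higher with all libraries, none was called without *vtc2-4* replicate 1, without *vtc2-4* replicate 2 or in the 6 libraries alone, and 1 further gene was lower without wild-type replicate 1. *ACS6*, which makes the ethylene precursor, had 58.6, 60.2 and 56.1 CPM in *vtc2-4*, against 27, 13.7 and 19.8 CPM in the wild type (1.53 ± 0.21, adjusted p = 0.0113, and 1.78 without replicate 1). *ETP1*, an F-box protein that restrains ethylene signalling and was called in 1 of the 6 fits without a library, had 27.2, 28.5 and 22.6 CPM in *vtc2-4*, against 11.7, 15.5 and 15 CPM in the wild type (0.89 ± 0.16, adjusted p = 0.0461, and 0.78 without replicate 1).

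For salicylic acid and pathogen defence, none of 17 genes was called with all libraries (median 0.09), and 2 had an unadjusted p under 0.05, a share close to the 1722 of 17388 over all genes. Both were called without wild-type replicate 1. *WRKY70*, a factor that favours salicylic acid over jasmonate responses, had 44.5, 40.2 and 32 CPM in *vtc2-4*, against 20.5, 8.35 and 6.73 CPM in the wild type (2.37 ± 0.23 without replicate 1, adjusted p = 1.17e-06). AT5G03350, annotated as a legume lectin protein, had 17.2, 17.8 and 20.9 CPM in *vtc2-4*, against 3.06, 8.94 and 6.56 CPM in the wild type (1.28 ± 0.25, adjusted p = 0.00293 in that fit). In both the *vtc2-4* values lay above all 3 wild-type values.

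Genes known to rise in darkness and under sugar starvation gave 13 calls with all libraries, the most of any list in that fit. This rank is a description, since the members were listed with earlier results of these data known. Of 29 listed, 28 were tested, all 13 calls were rises, and the median log2 fold change was 1.51. In the fit without wild-type replicate 1, 17 were called with a median of 1.49, against 18 of the detoxification list, and the number fell to 7 without *vtc2-4* replicate 2 and to 8 without *vtc2-4* replicate 1. AT5G19120, annotated as an aspartyl protease family protein, had 51.6, 45 and 37.3 CPM in *vtc2-4*, against 3.06, 6.56 and 4.83 CPM in the wild type (3.22 ± 0.29, adjusted p = 0.00152, and 2.98 without replicate 1). AT2G20670, a DUF506 protein, had 98.1, 94.4 and 66.7 CPM in *vtc2-4*, against 14.9, 11.3 and 7.76 CPM in the wild type (2.93 ± 0.28, adjusted p = 0.00159, and 3.19 without replicate 1). The groups were several times apart in both genes. *BT5*, a BTB–TAZ scaffold protein, had 37.9, 25 and 23.1 CPM in *vtc2-4*, against 5.75, 4.37 and 2.59 CPM in the wild type (2.75 ± 0.28, adjusted p = 0.00206, and 3.05 without replicate 1). AT1G23390, a Kelch repeat F-box protein, had 130.2, 129.7 and 89.2 CPM in *vtc2-4*, against 29.1, 20.7 and 20.5 CPM in the wild type (2.31 ± 0.22, adjusted p = 0.00158, and 2.5 without replicate 1).

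Further called members were AT5G21940 (2.59 ± 0.25), AT3G15450 (2.44 ± 0.32), AT4G32480 (2.1 ± 0.29) and AT3G07350 (3.86 ± 0.52). The last rested on few reads, 54, 38 and 24 in *vtc2-4*, against 1, 2 and 3 in the wild type, so its fitted size depends on the prior count. To complete the count, *BT2*, *DIN10*, *TPS8*, *DRM1* and AT3G10020 had log2 fold changes between 1.36 and 2.08. *DIN10*, a raffinose synthase-like gene of dark-grown leaves, had 42.9, 32.7 and 24.2 CPM in *vtc2-4*, against 6.47, 14.7 and 9.84 CPM in the wild type. Other members were not called. *DIN1*, a senescence marker, had 19.7, 24.7 and 35.3 CPM in *vtc2-4*, against 86.6, 40.1 and 39.2 CPM in the wild type (adjusted p = 0.38). *DIN6*, the asparagine synthetase of starved cells, had 2.97, 5.05 and 3.17 CPM in *vtc2-4*, against 3.95, 1.99 and 3.45 CPM in the wild type. The beta-glucosidase gene *DIN2* was detected mainly in single libraries. Its reads numbered 98 in *vtc2-4* replicate 1 and 2 in wild-type replicate 1, with 0 in the other libraries of these genotypes.

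The TTATCC letters, known from promoters repressed by sugar, were sought in the same 250 bases on either strand. They were present in 12 of the 29 listed promoters (41.4%) and in 5 of the 13 called ones (38.5%), against 12.5% of all 27443 promoters. The difference was not tested, and the list was drawn up with earlier results of these data known. Among all called genes the letters stood in 17 of 74 promoters of higher genes (23.0%) and in 1 of 29 of lower genes (3.45%). The promoters of AT5G19120 (chr5:6414238-6414487, plus strand), AT2G20670 (chr2:8913748-8913997, minus strand), *BT5* (chr4:17672354-17672603, minus strand) and AT3G15450 (chr3:5212734-5212983, plus strand) are shown because they belong to called members with a match. Capitals mark TTATCC or its reverse complement, which begins 140, 80, 234 and 90 bases before the gene start in that order.
AT5G19120: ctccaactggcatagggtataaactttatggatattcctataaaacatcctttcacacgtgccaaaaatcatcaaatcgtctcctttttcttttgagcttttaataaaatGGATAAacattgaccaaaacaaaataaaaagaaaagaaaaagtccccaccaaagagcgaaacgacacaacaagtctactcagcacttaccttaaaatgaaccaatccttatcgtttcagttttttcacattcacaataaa
AT2G20670: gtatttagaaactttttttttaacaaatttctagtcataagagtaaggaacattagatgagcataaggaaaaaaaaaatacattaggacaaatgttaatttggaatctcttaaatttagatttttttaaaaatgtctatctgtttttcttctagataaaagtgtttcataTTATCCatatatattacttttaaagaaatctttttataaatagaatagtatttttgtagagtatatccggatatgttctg
BT5: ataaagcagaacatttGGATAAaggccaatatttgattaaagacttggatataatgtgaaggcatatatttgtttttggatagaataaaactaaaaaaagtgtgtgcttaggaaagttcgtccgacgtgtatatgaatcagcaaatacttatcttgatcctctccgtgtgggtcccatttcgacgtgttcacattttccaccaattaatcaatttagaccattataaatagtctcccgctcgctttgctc
AT3G15450: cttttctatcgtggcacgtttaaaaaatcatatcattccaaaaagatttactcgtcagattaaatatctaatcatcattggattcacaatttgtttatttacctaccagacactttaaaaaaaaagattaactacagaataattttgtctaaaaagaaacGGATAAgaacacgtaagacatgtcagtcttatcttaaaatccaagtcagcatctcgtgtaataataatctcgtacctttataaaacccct

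Factors and enzymes around sugar use gave fewer calls. Of 9 bZIP factors of the energy response none was called with all libraries (median -0.17, 3 at an unadjusted p under 0.05). When wild-type replicate 1 was left out, *bZIP53* (1.15 ± 0.18), *BZO2H3* (1.14 ± 0.21) and *bZIP1* (1.56 ± 0.38) were higher and *bZIP11*, whose translation is repressed by sucrose, was lower (-0.79 ± 0.13). For *bZIP11* the levels were 15.6, 17.2 and 19.6 CPM in *vtc2-4*, against 51.6, 31 and 29.7 CPM in the wild type. Of 14 genes of starch breakdown, *BAM9*, a beta-amylase homologue without known catalytic activity, was called higher, with 29.2, 28.1 and 23.8 CPM in *vtc2-4*, against 6.65, 13.3 and 9.66 CPM in the wild type (1.46 ± 0.24, adjusted p = 0.0294, and 1.25 without replicate 1). *BAM9* was called in 2 of the 6 fits without a library. *BAM1*, an active beta-amylase, had 65.2, 75.6 and 70.3 CPM in *vtc2-4*, against 59.9, 104 and 109 CPM in the wild type. It was called lower only without replicate 1 of the wild type (-0.60 ± 0.08).

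*KMD1* and *KMD4* were the called members of the cytokinin list, in every fit without 1 library. They encode F-box proteins that mark type-B response regulators, the activators of the cytokinin response, for degradation. *KMD1* had 50.8, 54.4 and 35.5 CPM in *vtc2-4*, against 3.42, 7.75 and 6.38 CPM in the wild type (3.00 ± 0.31, adjusted p = 0.00226, and 2.74 without replicate 1). *KMD4* had 152, 158 and 131 CPM in *vtc2-4*, against 45.5, 34.2 and 38.1 CPM in the wild type (1.90 ± 0.17, adjusted p = 0.00152, and 2.02 without replicate 1). The type-A response regulators *ARR6* and *ARR7*, which are cytokinin-induced, were called lower by edgeR only without wild-type replicate 1. With all libraries, DESeq2 and the length correction each called 2 genes of the list lower. *ARR7* had 25.4, 22 and 25.8 CPM in *vtc2-4*, against 101, 35.8 and 40.7 CPM in the wild type (-0.65 ± 0.10, adjusted p = 0.000408 in that fit). The other 10 tested genes of the list were not called by edgeR, with or without wild-type replicate 1.

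Calls of abscisic acid and dehydration genes went both ways. Of 33 tested with all libraries, 2 were called higher and none lower, with a median log2 fold change of -0.31. Of these, 11 lay above the wild type and 16 had an unadjusted p under 0.05, against 8480 and 1722 of all 17388 genes tested. With all libraries, DESeq2 called 2 higher and 9 lower, and the length correction 2 higher and 4 lower. Without wild-type replicate 1 there were 2 higher and 12 lower of 34 (median -0.34). *CYP707A3*, which inactivates abscisic acid by hydroxylation, had 8.31, 10.8 and 6.77 CPM in *vtc2-4*, against 1.44, 0.795 and 1.73 CPM in the wild type (2.67 ± 0.35, adjusted p = 0.00951, and 2.73 without replicate 1). *RD26*, a NAC factor induced by drought and in the dark, had 28.6, 26.6 and 17 CPM in *vtc2-4*, against 9.53, 5.96 and 6.56 CPM in the wild type (1.71 ± 0.26, adjusted p = 0.0237, and 1.94 without replicate 1). *RD26* was called in 2 of the 6 fits without a library. The 12 lower genes included targets and phosphatases of the response. *HB7*, a homeodomain factor induced by abscisic acid, had 31.6, 27.9 and 23.4 CPM in *vtc2-4*, against 89.5, 47.5 and 54.7 CPM in the wild type (-0.89 ± 0.12 without replicate 1, adjusted p = 4.39e-05). *GolS2*, a galactinol synthase, had 8.9, 7.86 and 10.2 CPM in *vtc2-4*, against 15.6, 18.3 and 15.4 CPM in the wild type (-0.90 ± 0.18, adjusted p = 0.0035 in that fit). The groups of *HB7* and *GolS2* did not overlap.

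Calls of cold-response genes varied with the libraries and the tool. None of 11 was called with all libraries by edgeR and 2 were called lower by DESeq2. Of the 11, 10 lay below the wild type and 8 had an unadjusted p under 0.05, against 1722 of 17388 over all genes, and the median log2 fold change was -0.70. With wild-type replicate 1 removed, the median was -0.30 and 4 were called lower, and 2 were called lower without wild-type replicate 2. *COR15A*, which protects chloroplast membranes, had 179, 188 and 171 CPM in *vtc2-4*, against 586, 236 and 325 CPM in the wild type (-0.65 ± 0.09 without replicate 1, adjusted p = 9.55e-05). Its regulator *CBF3* had 6.98, 5.75 and 4.61 CPM in *vtc2-4*, against 17.1, 8.55 and 13.1 CPM in the wild type (-0.92 ± 0.21, adjusted p = 0.0113 in that fit). Of 8 heat shock genes none was called with all libraries (3 at an unadjusted p under 0.05), and the small heat shock gene AT2G29500 had 5.34, 5.75 and 3.89 CPM in *vtc2-4*, against 53, 10.7 and 11 CPM in the wild type.

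**Figure D2:**
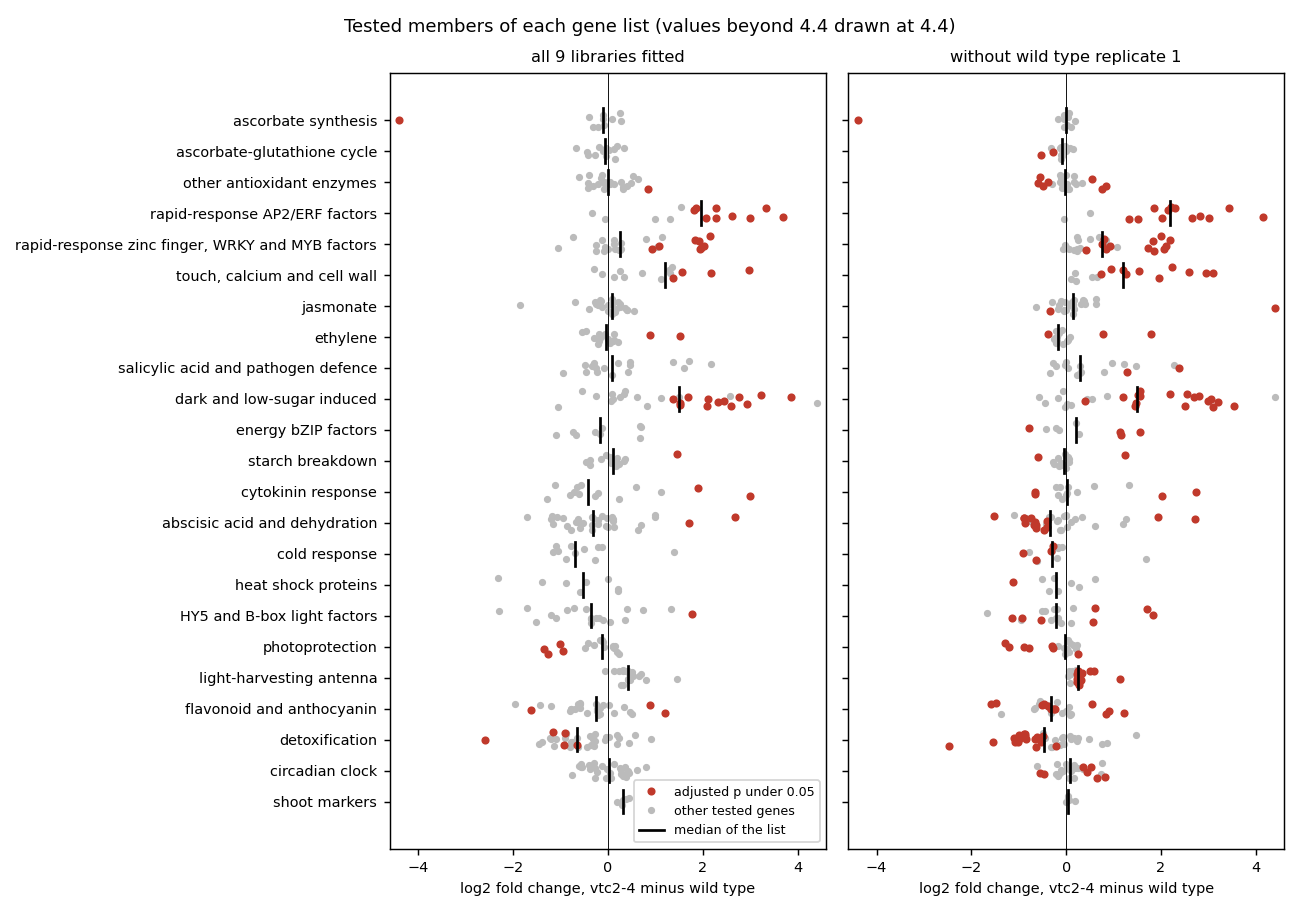
Log2 fold change (*vtc2-4* over the wild type) of each tested member of 23 gene lists, fitted with all libraries on the left and without wild-type replicate 1 on the right; red points were called, grey points were not and black bars mark list medians, with values beyond 4.4 (*VTC2*) drawn at the axis limit. The AP2/ERF and the dark and low-sugar lists have the highest medians in both panels, on the left at 1.97 and 1.51.

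Among photoprotection genes the calls were falls. Of 17 tested, 4 were called lower and none higher, with a list median of -0.13. After removal of wild-type replicate 1, 6 were lower and 1 higher, and 1 was still called lower without *vtc2-4* replicate 1 or without *vtc2-4* replicate 2. *ELIP2* and *ELIP1* encode early light-induced proteins, which bind pigments when thylakoids meet excess light. *ELIP2* had 17.7, 20.2 and 20.2 CPM in *vtc2-4*, against 52.9, 45.3 and 49.7 CPM in the wild type (-1.35 ± 0.13, adjusted p = 0.00176, and -1.30 without replicate 1). *ELIP1* had 38.6, 28.3 and 36.6 CPM in *vtc2-4*, against 90.6, 63.2 and 94.6 CPM in the wild type (-1.26 ± 0.19, adjusted p = 0.0168, and -1.20 without replicate 1). For *ELIP2* the highest *vtc2-4* value was under the lowest wild-type value by a wide margin, and the call held in each fit without 1 library.

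*SIGE* encodes a plastid sigma factor that guides transcription of photosystem genes under light and stress. It had 53.4, 61.4 and 56.1 CPM in *vtc2-4*, against 150.3, 108 and 88.9 CPM in the wild type (-1.02 ± 0.18, adjusted p = 0.0428, and -0.78 without replicate 1). *BCH2*, a beta-carotene hydroxylase of xanthophyll synthesis, had 16, 17.1 and 19.9 CPM in *vtc2-4*, against 37.2, 35.4 and 30.4 CPM in the wild type (-0.96 ± 0.14, adjusted p = 0.0149, and -0.89 without replicate 1). Its homologue *BCH1* was called lower only without wild-type replicate 1 (-0.31 ± 0.07). *ZEP* was called lower and *OHP* higher, likewise only in that fit. No further member of the list was called with all libraries or in that fit. *PSBS* had 2053, 1924 and 1990 CPM in *vtc2-4*, against 1352, 2042 and 2050 CPM in the wild type.

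Light-harvesting antenna genes encode the chlorophyll-binding proteins around both photosystems. None of 20 was called with all libraries by edgeR and 3 were called higher by DESeq2. Of the 20, 19 lay above the wild type and 10 had an unadjusted p under 0.05 (median log2 fold change 0.42), against 8480 and 1722 of all 17388 genes tested. In the fit without wild-type replicate 1, all 20 lay above the wild type, 13 were called and the median was 0.24, against 0.01 over all genes. *LHCB1.4* stood out with 341, 409 and 324 CPM in *vtc2-4*, against 65.2, 146 and 182 CPM in the wild type (1.13 ± 0.11 without replicate 1, adjusted p = 1.23e-06). *LHCB4.2*, a minor antenna protein of photosystem II, had 717, 793 and 746 CPM in *vtc2-4*, against 323, 506 and 563 CPM in the wild type (0.49 ± 0.06, adjusted p = 3.41e-05 in that fit). Reads of near-identical *LHCB* copies could have been divided between them by the counting.

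Of 20 light-signalling genes, 6 lay above the wild type with all libraries, with a median log2 fold change of -0.35. An unadjusted p under 0.05 was found for 13 of them, against 1722 of 17388 over all genes. After adjustment 1 was called, *BBX14*, a B-box factor of the CONSTANS-like group. It had 229.8, 242 and 200.3 CPM in *vtc2-4*, against 70.8, 63 and 64 CPM in the wild type (1.76 ± 0.12, adjusted p = 0.00022, and 1.82 without replicate 1), and its groups lay more than the whole spread of either genotype apart. *BBX17*, a relative, had 16, 14.6 and 10.7 CPM in *vtc2-4*, against 7.91, 3.58 and 4.83 CPM in the wild type, and was called without wild-type replicate 1 (1.69 ± 0.23). In that fit 4 members were higher and 3 were lower. The lower ones were the B-box genes *BBX32* (-1.14 ± 0.28) and *BBX29* (-0.93 ± 0.26) and *HYH*, a homologue of *HY5* (-0.53 ± 0.12). *HY5*, the central factor of light-grown development, had 18.4, 17.4 and 19.9 CPM in *vtc2-4*, against 55.2, 23.9 and 22.6 CPM in the wild type (adjusted p = 0.387), and wild-type replicate 1 alone lay far above the rest. Of 28 clock genes none was called with all libraries (9 at an unadjusted p under 0.05), and without wild-type replicate 1 there were 5 higher and 2 lower. *PRR9*, a morning repressor, had 28.9, 29.7 and 30.1 CPM in *vtc2-4*, against 63.1, 43.5 and 43 CPM in the wild type (-0.55 ± 0.09 in that fit).

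Among regulators of anthocyanin synthesis 3 were called. *MYB75*, the activator, fell, with 11.4, 12.9 and 13.4 CPM in *vtc2-4*, against 47.1, 26 and 43.3 CPM in the wild type (-1.63 ± 0.21, adjusted p = 0.00985, and -1.47 without replicate 1). *MYBL2*, a repressor of the pathway, rose, with 99.7, 109 and 82.3 CPM in *vtc2-4*, against 44.2, 40.7 and 42.1 CPM in the wild type (1.19 ± 0.14, adjusted p = 0.00547, and 1.23 without replicate 1). *LBD37*, a repressor that also responds to nitrate, rose as well, with 113, 117 and 107 CPM in *vtc2-4*, against 55.7, 62.2 and 63.1 CPM in the wild type (0.89 ± 0.11, adjusted p = 0.00562, and 0.84 without replicate 1). *MYB75* was called in 4 of the 6 fits without a library and *MYBL2* in all. The enzymes were not called with all libraries. *CHS*, chalcone synthase, had 113, 111 and 113 CPM in *vtc2-4*, against 44.9, 128 and 137 CPM in the wild type, and *DFR*, specific to anthocyanins, had 2.38, 5.19 and 5.48 CPM in *vtc2-4*, against 10.8, 5.57 and 6.04 CPM in the wild type. Of 27 tested genes of the list, 4 were higher and 8 lower without wild-type replicate 1, with a median of -0.32.

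Detoxification genes, which act on reactive carbonyls and foreign compounds, were called in 1 direction. Of 36 tested, 5 were called lower and none higher, with a median log2 fold change of -0.65, and without wild-type replicate 1 there were 18 lower, none higher and a median of -0.47. No member was called without *vtc2-4* replicate 3, and 1 was called without *vtc2-4* replicate 1, without *vtc2-4* replicate 2 or without wild-type replicate 2. AT3G04000 and AT4G13180 are annotated as NAD(P)-binding proteins. AT3G04000 had 12.6, 14 and 11.1 CPM in *vtc2-4*, against 30.2, 28.6 and 25.2 CPM in the wild type (-1.15 ± 0.15, adjusted p = 0.00994, and -1.09 without replicate 1). *AKR4C9*, an aldo-keto reductase that acts on reactive carbonyls, had 35.8, 33.9 and 33.1 CPM in *vtc2-4*, against 55.4, 71.2 and 65.2 CPM in the wild type (-0.90 ± 0.16, adjusted p = 0.039, and -0.99 without replicate 1). Its neighbour *AKR4C8* had 58.2, 60.2 and 63.7 CPM in *vtc2-4*, against 93.1, 95.6 and 97 CPM in the wild type (-0.65 ± 0.11, adjusted p = 0.0366, and -0.67 without replicate 1). *GSTU2*, a tau-class glutathione S-transferase, had only 9, 4 and 2 reads in *vtc2-4*, against 29, 23 and 21 reads in the wild type (-2.59 ± 0.41, adjusted p = 0.0265, and -2.46 without replicate 1). *ATAF1*, a NAC factor, had 31.3, 37 and 32.3 CPM in *vtc2-4*, against 52.9, 75.5 and 58.5 CPM in the wild type (adjusted p = 0.0522), and was called without replicate 1 of the wild type.

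**Figure D3:**
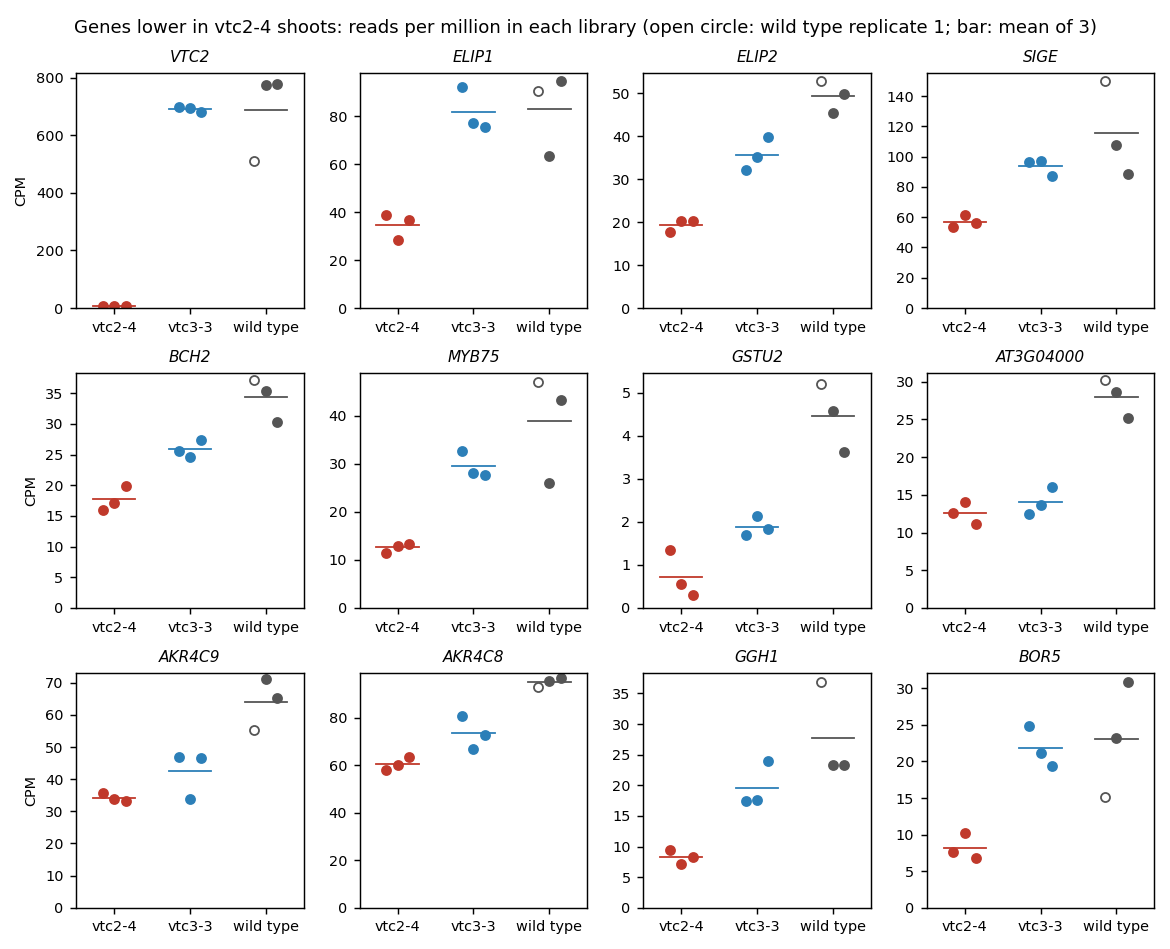
Levels (CPM, linear axes that start at 0) of 12 genes called lower in *vtc2-4*, with 1 point for each library, a bar at the mean of 3 and an open circle for wild-type replicate 1. *VTC2* lies at 5.33 to 7.15 CPM in *vtc2-4*, against 511 to 776 CPM in the wild type, and *ELIP2* at 17.7 to 20.2 CPM, against 45.3 to 52.9 CPM.

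Large falls outside the lists were few. *GGH1*, a gamma-glutamyl hydrolase of folate turnover, had 9.5, 7.15 and 8.21 CPM in *vtc2-4*, against 36.9, 23.2 and 23.3 CPM in the wild type (-1.75 ± 0.23, adjusted p = 0.00985, and -1.49 without replicate 1). *BOR5*, annotated in the bicarbonate transporter family, had 7.57, 10.2 and 6.77 CPM in *vtc2-4*, against 15.1, 23.2 and 30.9 CPM in the wild type (-1.49 ± 0.27, adjusted p = 0.043, and -1.73 without replicate 1). AT2G25625 had 9.8, 12.2 and 10.1 CPM in *vtc2-4*, against 25.9, 31.6 and 28.6 CPM in the wild type (-1.42 ± 0.15, adjusted p = 0.00226, and -1.49 without replicate 1), and it alone of these was called in each fit without 1 library. AT1G67105, which has no protein product in the annotation, had 10, 12 and 13 reads in *vtc2-4*, against 88, 51 and 65 reads in the wild type, and it had 6, 2 and 0 reads in *vtc3-3*. Both mutants were thus low. The remaining named falls, AT1G33102, AT1G10585 and AT1G69480, had log2 fold changes of -1.90, -1.86 and -1.39, and each was called in at most 2 of the 6 fits without a library. Among the rises outside the lists only AT3G50800 was large enough to be named, with 47, 43 and 46 reads in *vtc2-4*, against 10, 1 and 3 reads in the wild type. It was called in 1 of the 6 fits without a library.

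As a description with no test, the median exon length was 1331 bases in the higher genes and 1399 bases in the lower genes, against 1608 bases over all tested genes with a length. The higher genes had a median of 6.18 RPKM (reads scaled to exon length and library size) in wild-type replicates 2 and 3, the lower genes 34.7 RPKM and all tested genes 12.8 RPKM. The median level of the higher genes was thus below that of all tested genes. The same wild-type libraries entered the calls, and selection of rises favours low wild-type levels and selection of falls high ones. Of the 126 named genes, 37 overlap another gene of the TAIR10.1 RefSeq annotation, 34 of them a gene on the opposite strand, among them *ORA47*, *BT5*, *GSTU2* and *BOR5*. The library kit does not mark strand, so reads of such pairs cannot be told apart.

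The direct comparison of *vtc2-4* with *vtc3-3* shares the *vtc2-4* libraries with the comparison above, and the wild-type libraries entered its estimate of the spread. With all libraries in the fit, 49 genes were higher in *vtc2-4* (0.282%) and 12 were lower (0.069%), against 635 and 556 without wild-type replicate 1. The common biological coefficient of variation was 0.186 with that library and 0.052 without it. Among the AP2/ERF factors 10 of 14 were higher, among the zinc finger, WRKY and MYB factors 6 of 26, among the touch genes 3 of 14, and among the dark and low-sugar genes 7 of 28, with none lower in these lists. The numbers higher without wild-type replicate 1 were 12, 11, 7 and 19 in that order, with 1 lower in each of the touch and the dark and low-sugar lists. In the dark and low-sugar list *vtc3-3* also stood above the wild type. Its median log2 level relative to each gene's mean was -0.29 to 0.047 in *vtc3-3* libraries. It was -0.74 to -0.51 in wild-type libraries and 0.51 to 1.21 in *vtc2-4* libraries. *ERF104* had 7.18, 5.64 and 5.48 CPM in *vtc3-3*, and was higher in *vtc2-4* by 2.54 on the log2 scale (adjusted p = 0.000983). *RAV1* had 16.6, 17.9 and 12.8 CPM in *vtc3-3*, and *BBX14* had 91.7, 86.8 and 86.3 CPM there, with differences of 2.15 (adjusted p = 0.00216) and 1.34 (adjusted p = 0.00216). For *ERF104* and *BBX14* all *vtc3-3* values lay above all wild-type values, whereas for *RAV1* they overlapped the wild type.

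*ELIP1* and *ELIP2* were lower in *vtc2-4* than in *vtc3-3* (-1.24 and -0.88, adjusted p = 0.025 and 0.0284). Of the 33 abscisic acid genes 4 were lower and 1 higher in *vtc2-4* than in *vtc3-3* with all libraries, against 22 lower and 3 higher of 34 without wild-type replicate 1. The 4 lower ones included *LEA4-5*, a protective protein of drying cells, and *AFP1*, an ABI5-binding protein. *LEA4-5* had 0.594, 1.54 and 0.721 CPM in *vtc2-4*, against 6.66, 6.81 and 5.94 CPM in *vtc3-3* (-2.73, adjusted p = 0.014). In this list *vtc3-3* itself stood above the wild type. Relative to each gene's mean, the median log2 level was 0.17 to 0.32 in *vtc3-3* libraries. It was -0.11 to -0.0049 in wild-type libraries and -0.36 to -0.23 in *vtc2-4* libraries. Of the 36 detoxification genes none was called between the mutants with all libraries, whereas 5 were lower and 1 higher without wild-type replicate 1. Their median log2 difference with all libraries was -0.19, against -0.0011 over all genes. Of the cold-response genes none was called between the mutants with all libraries (median log2 difference -0.55) and 10 were lower without wild-type replicate 1. AT3G04000 had 12.4, 13.6 and 16.0 CPM in *vtc3-3*, overlapping *vtc2-4*. The mean of *vtc3-3* lay between those of *vtc2-4* and the wild type in 61 of the 74 higher genes and in 27 of the 30 lower genes. These genes were selected for a gap between *vtc2-4* and the wild type in the same libraries, which favours such a position. No share over all tested genes was computed, so the counts place *vtc3-3* levels and test no difference.

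**Figure D4:**
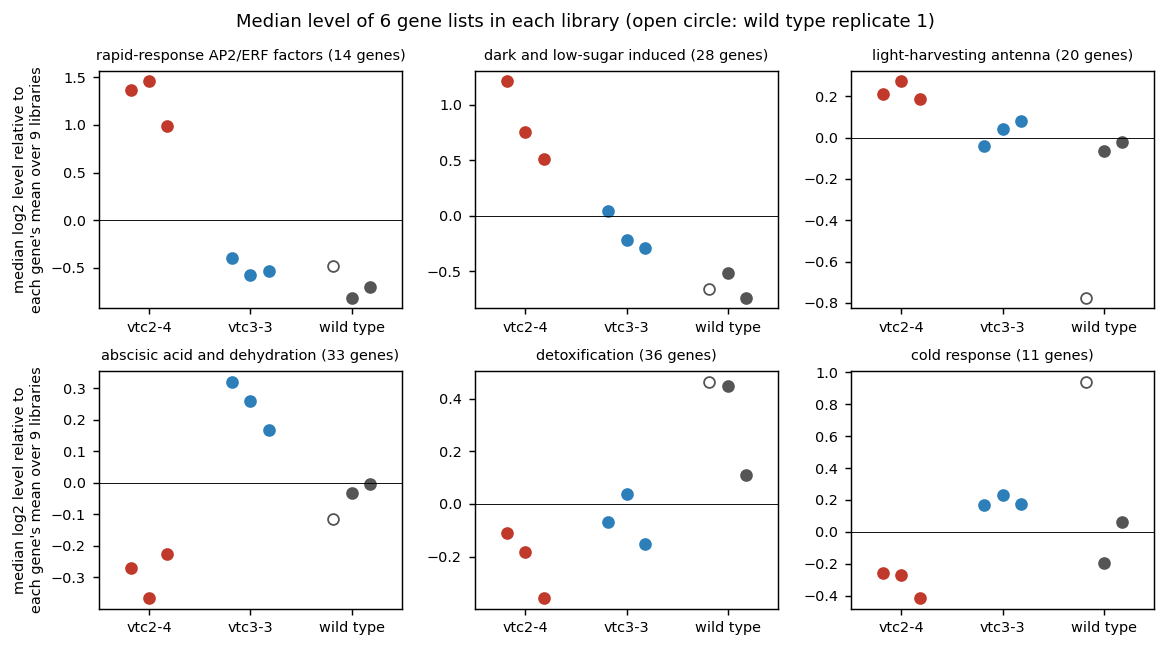
Median level of the tested members of 6 gene lists in each library, as log2 (CPM + 0.5) relative to each gene's mean over the 9 libraries, with an open circle for wild-type replicate 1. The AP2/ERF list lies at 0.99 to 1.46 in *vtc2-4* and below -0.39 in all *vtc3-3* and wild-type libraries, whereas the antenna and cold lists show wild-type replicate 1 apart from the other wild-type libraries (-0.77 and 0.94).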

How the data were processed

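Total RNA of shoots was sequenced by the authors on a MiSeq from TruSeq v2 libraries (which do not mark strand), and reads were mapped and counted in CLC Genomics Workbench. The build and annotation are not given in the sources used here. All 27996 nuclear genes found in both annotations overlapped their TAIR10.1 RefSeq entries. The counts deposited are unnormalized gene reads (exons and introns), and exon read counts were used as an alternative. RPKM, also calculated by the authors, served only for levels. Exon length and position are annotation scores as deposited, and the chromosome is another deposited label. Of 171 per-library columns, 140 were not used. The authors' own comparison columns (fold changes and p-values) were not used.

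Counts were scaled by TMM and fitted with edgeR 4.0.16 (quasi-likelihood test, filterByExpr, R 4.3.3) on all 9 libraries with genotype as the only term. P-values were adjusted by Benjamini–Hochberg over all tested genes, with calls under 0.05. The fit was repeated without wild-type replicate 1. Alternatives were DESeq2 1.42.0, limma 3.58.1 (voom with quality weights), other scalings and filters, a lowess length correction with a span of 0.3, a replicate block, and each library left out. The method was tested on simulated data. Replicates are biological samples per the authors, and no pair agreed within sampling noise.

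The genotype comparison and the 24 gene lists (504 genes) were chosen with earlier results of these data known. Named genes were *VTC2* and *VTC5*, the 10 largest rises and 10 largest falls among calls, in each list up to 8 members called with all libraries and up to 4 called only without wild-type replicate 1, and called neighbours among the 10 genes on each side of *VTC2*. Others appear as uncalled examples or to complete a count. Motifs were matched on both strands in 250 bases before RefSeq gene starts.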

Additional observations from a re-analysis of the deposited data

How the results depend on the processing

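Each of the 104 calls kept its direction in every alternative in which it was tested (103 were tested with exon reads). Against 74 higher and 30 lower genes with all libraries, DESeq2 gave 149 and 135, voom with quality weights 458 and 487, the length correction 129 and 82, the 6 *vtc2-4* and wild-type libraries alone 29 and 5, and these without wild-type replicate 1 510 and 550. Leaving out single libraries gave 27 to 535 higher and 4 to 531 lower genes. Against 49 higher and 12 lower genes relative to *vtc3-3*, DESeq2 gave 91 and 41, voom 572 and 533, the length correction 23 lower, and leaving out single libraries 7 to 635 higher and 1 to 556 lower. Deviations of same-numbered *vtc2-4* and wild-type libraries from their group means correlated at 0.06, 0.04 and 0.01. The wild-type mean included the outlying replicate 1, so these values cannot decide whether replicate numbers pair the samples. A replicate block gave 55 higher and 15 lower genes. The causes of these differences were not tested.

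Directions turned in few named genes, none of them called with all libraries. Over the fits without 1 library, log2 fold changes ran from -0.58 to 1.85 for *WRKY40*, -0.12 to 0.75 for *WRKY18*, -0.052 to 0.39 for *BT1*, -0.32 to 0.091 for *RD29A*, -0.28 to 0.033 for *ZEP*, -0.67 to 0.24 for *OHP* and -0.36 to 0.82 for *RVE2*. In the fit of *vtc2-4* and wild-type replicates 2 and 3 alone *WRKY40*, *OHP* and *RVE2* were at 1.84, 0.24 and 0.81, and with voom at 1.74, 0.23 and 0.76. After the length correction they were at 0.092, 0.00045 and 0.25. The replicate block gave 0.26 for *WRKY40* and 0.14 for *RVE2*, and the fit with no filter on low counts gave 0.0025 for *RVE2*. Low reads limit *JAZ7*, *XTH23*, *GSTU2*, AT3G07350 and AT3G50800, whose fitted sizes depend on few reads.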
